A study of Caenorhabditis elegans with 6 samples.

Results

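The genes described here are 7 translation initiation factor genes of Caenorhabditis elegans whose messenger RNAs were recovered with the RNA-binding protein ADR-1: eif-2alpha, eif-3.E, eif-3.G, eif-3.I, ife-3, ifg-1 and Y65B4A.6, which RefSeq names eif-4A3. They were taken by name from the authors' table of uniquely annotated significant read clusters, which gives 363 gene identifiers. Since the 7 genes were chosen because they appear in that table, the presence of a cluster is no finding. Together they hold 13 of the 636 clusters in the table, where a cluster is a stretch of genome in which CLIP reads pile up. ADR-1 is a double-stranded RNA-binding protein of the ADAR family without deaminase activity of its own, known in the worm to affect adenosine editing by ADR-2.

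All animals were of the strain HAH59, which carries a 3xFLAG tag on ADR-1, and were grown as unsynchronized populations of mixed stage on OP50 bacteria at 20 °C. They were crosslinked with ultraviolet light at 3 J/cm2. Lysates of 5 mg were trimmed with 150 units of RNase I, 2% of each was set aside as input, and the remainder was pulled down on anti-FLAG beads (CLIP). There were 3 CLIP and 3 input libraries, numbered 1 to 3. No untagged strain was analysed here, so RNA that sticks to beads and RNA in contact with ADR-1 cannot be told apart. Whole animals were lysed, so more cells expressing a gene and more of its RNA per cell cannot be told apart either.

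Translation initiation begins when eIF2, bound to GTP, carries the initiator tRNA to the small ribosomal subunit, and phosphorylation of its alpha subunit lowers initiation under stress. eIF3 is a scaffold of many subunits on the small subunit, and it bridges to eIF4F, the complex of the cap-binding protein eIF4E, the scaffold eIF4G and the helicase eIF4A, which loads capped messenger RNA. eIF4A3 is a relative of eIF4A that is known for its place in the exon junction complex, which marks spliced messenger RNA, and not for a part in start-site scanning. In messenger RNAs of the worm, long base-paired stretches in 3' UTRs are known substrates of ADAR proteins.

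All 13 clusters lay in a 3' UTR by the authors' annotation, against 67.8% of the 636 clusters. None of the 13 had an annotated gene on the opposite strand, and at all 13 the RefSeq table of WBcel235 held no second gene. The clusters were taken from a list of uniquely annotated ones, so this can follow from that selection. eif-2alpha had 2 clusters, eif-3.I had 2 and Y65B4A.6 had 5, and the other 4 genes had 1 each. The clusters were 39 to 195 bases long, with a median of 98 bases against 83 bases over the 636. Their downstream edges lay a median of 195 bases before the annotated 3' end of the gene (quartiles 154 and 758). The same distance was 368 bases (197 and 639) over the 425 3' UTR clusters that lay inside a RefSeq gene. Coordinates below are printed as deposited, on ce11 or WBcel235, and no source used here says if the first base is numbered 0 or 1.

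**Figure D1:**
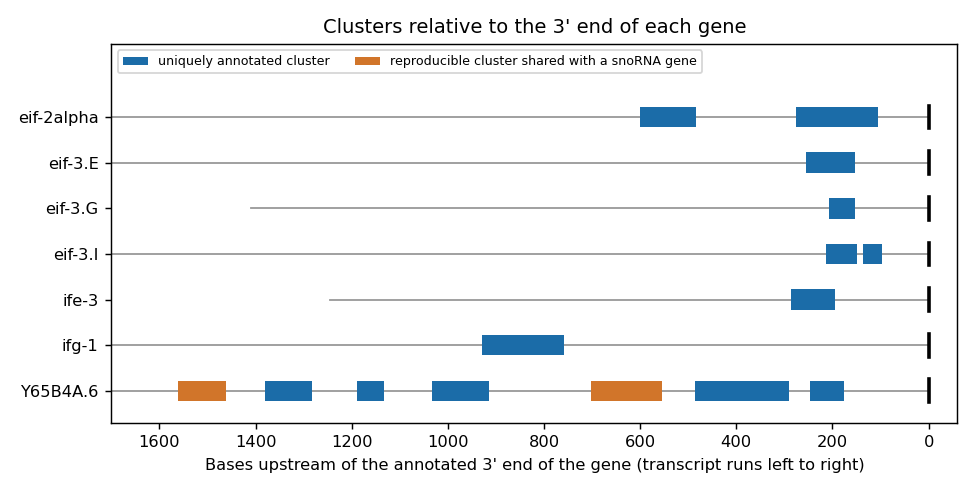
Clusters of the 7 genes by their distance, in bases, from the annotated 3' end of the gene (black mark at 0), with the transcript running from left to right; grey lines end at the gene's start or at the edge of the plot. Blue bars are the 13 uniquely annotated clusters and orange bars are 2 reproducible clusters that Y65B4A.6 shares with snoRNA genes. All clusters but those of ifg-1, the upstream one of eif-2alpha and 5 of the 7 of Y65B4A.6 end within 291 bases of the 3' end.

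Library totals recovered from the deposited statistics were 5770295 to 5776766 reads for CLIP and 2474073 to 4248635 for input. The 3 CLIP totals were equal within their error, and whether each is its library's own depth is not known. The 13 clusters held 4624, 894 and 2884 CLIP reads in replicates 1, 2 and 3, which were 3.57%, 3.20% and 3.63% of the CLIP reads in all 636 clusters. They held 30, 41 and 30 input reads. CLIP replicate 2 had the fewest CLIP reads in 12 of the 13 clusters, and the median ratio of CLIP reads in replicate 1 over replicate 2 was 4.97 over the 13 clusters and 4.97 over the 636.

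Enrichment is given in 2 ways. The library-scaled log2 ratio is the log2 of CLIP over input reads in 1 replicate, with 1 added to each count and library totals divided out, as mean ± SD over 3 replicates. The log2 fold of edgeR's quasi-likelihood test is fitted to all 6 libraries, with p-values adjusted by Benjamini-Hochberg over the 463 reproducible clusters that passed its filter on low counts. With 3 replicates the smallest p of an exact sign-flip test is 0.25, so the ratios are not tested. Of the 13 clusters, 12 passed the filter and all 12 were called higher in CLIP, where 97.2% of all clusters tested were called. The table holds clusters selected for enrichment in these libraries, so these calls are a description.

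In CPM (counts scaled to a common library total), the lowest CLIP library lay above the highest input library in 13 of 13 clusters, as it did in 87.9% of the 636 and 95.4% of the 431 in 3' UTRs. The median over the 13 clusters of the mean scaled log2 ratio was 3.82, with replicate medians of 5.14, 2.53 and 4.79, against 2.99 over the 636 and 3.41 over the 431 in 3' UTRs. The mean ratio exceeded its SD in 12 of 13 clusters, as it did in 89.2% of the 636 and 94.9% of the 431 in 3' UTRs, and eif-3.G was the exception. By mean ratio, 10 of 13 ranked in the upper part of the 636, above the median cluster, and 6 of 13 ranked at place 66 or better. Those 6 belong to 3 genes, eif-2alpha, Y65B4A.6 and ife-3. Place 66 is the rank of a Y65B4A.6 cluster, below which 89.6% of the 636 clusters lay. That cut was taken from the members' own ranks after they were seen, so the count is a description.

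**Figure D2:**
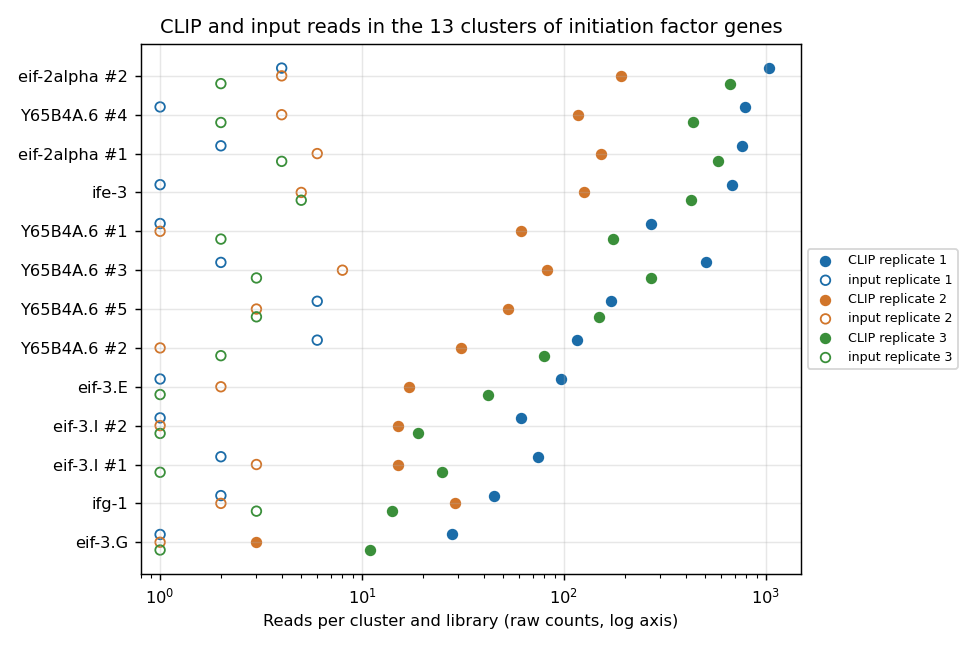
Raw reads per library (log axis) in each of the 13 clusters, ordered by mean enrichment; # numbers the clusters of a gene from 5' to 3'. Filled points are CLIP libraries and open points input libraries, coloured by replicate. Input counts run from 1 to 8, and CLIP counts from 3 in eif-3.G to 1031 in the second cluster of eif-2alpha.

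By their strongest cluster, the alpha subunit of eIF2 and Y65B4A.6 held the highest ratios of the 7 genes. For Y65B4A.6 this is the best of 5 clusters, while ife-3 has only 1. With reads summed over a gene's clusters, the ratio was 6.10 ± 2.05 for eif-2alpha, 5.61 ± 2.39 for ife-3 and 5.10 ± 1.79 for Y65B4A.6 (SD, n = 3). The best cluster of eif-2alpha led that of Y65B4A.6 over all 3 replicates, but trailed it without replicate 2 (7.28 against 7.44), without replicate 3 (5.63 against 5.75) and with no count added (6.61 against 6.71). eif-2alpha (WBGene00021351, plus strand) spans 2072680 to 2076925 on chromosome I, and its clusters covered 2076325 to 2076442 and 2076649 to 2076819, which end 483 and 106 bases before the gene does. The downstream cluster gave CLIP counts of 1031, 192 and 661 in replicates 1, 2 and 3 and input counts of 4, 4 and 2. Every CLIP library was far above every input library. Its scaled log2 ratio was 6.20 ± 1.87 (SD, n = 3), a 73.6-fold enrichment that ranked at place 6 of 636. The upstream cluster gave CLIP counts of 760, 153 and 579 and input counts of 2, 6 and 4, a ratio of 5.72 ± 2.22 (SD, n = 3). Within replicates the downstream cluster exceeded the upstream one by 0.48 ± 0.68 (SD, n = 3), higher in 2 of 3 replicates, so the pair did not differ beyond its spread. The edgeR log2 folds were 6.76 (adjusted p = 3.29e-06) and 6.11 (adjusted p = 4.07e-06). eif-2alpha accounted for 40.2% of the CLIP reads in the 13 clusters, and Y65B4A.6 for 39.3%.

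The other subunits of eIF2 differed in what they carried. eif-2gamma, the GTP-binding subunit, is not among the 7 genes and had 1 cluster in an intron, with 18, 6 and 17 CLIP reads against 1 input read in each library. Its scaled log2 ratio was 2.03 ± 1.25 (SD, n = 3), and it did not pass the filter on low counts. eif-2beta had no cluster, and neither did any of the 5 subunits of eIF2B, the exchange factor that recharges eIF2 with GTP. The kinases of eIF2alpha, pek-1 and gcn-2, had none either. The absence of a cluster is not a measure of absent binding.

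Of 13 eIF3 genes listed, 3 had clusters, all in 3' UTRs. Over the 636 clusters the median CLIP counts were 74, 17 and 43, close to those of eif-3.E and, in replicates 1 and 2, of the upstream eif-3.I cluster, and above those of eif-3.G. eif-3.E (WBGene00001228, chromosome I, 10640677 to 10640777, minus strand) gave CLIP counts of 97, 17 and 42 and input counts of 1, 2 and 1. All 3 CLIP libraries lay above the inputs, with replicate 2 lowest. The scaled log2 ratio was 3.50 ± 1.94 (SD, n = 3), an 11.3-fold enrichment, and its edgeR log2 fold 4.45 (adjusted p = 1.24e-05). The 3' UTR cluster ends 154 bases before the gene does. eif-3.E encodes the subunit known in mammals as INT6.

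eif-3.I (WBGene00001232, chromosome I, plus strand), which encodes a WD-repeat subunit, had 2 short clusters, at 2489574 to 2489638 and 2489651 to 2489690. The upstream cluster gave CLIP counts of 74, 15 and 25 and input counts of 2, 3 and 1. The downstream one had 61, 15 and 19 CLIP reads, and each input count was 1, the lowest value deposited. CLIP replicates 2 and 3 were close to each other in both, well under replicate 1. The scaled log2 ratios were 2.74 ± 1.76 and 3.05 ± 1.36 (SD, n = 3), and they differed within replicates by 0.31 ± 0.69, less than the spread. The edgeR log2 folds were 3.43 (adjusted p = 5.27e-05) and 4.17 (adjusted p = 3.64e-06). With input counts of 1 taken as 0, the downstream fold rose to 7.69, since its inputs then hold no read, so its size rests on CLIP reads alone.

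eif-3.G (WBGene00001230, chromosome II, 8443967 to 8444021, plus strand), which encodes an RNA-recognition-motif subunit, was the weakest of the 7 genes. It had 28, 3 and 11 CLIP reads against an input count of 1 in each library. In CPM its CLIP libraries did not overlap the inputs, but with 1 added to the counts replicate 2 had a scaled log2 ratio of -0.22, against 3.38 and 2.14 in replicates 1 and 3. The mean of 1.77 ± 1.83 (SD, n = 3) did not exceed the spread, and the cluster ranked at place 569 of 636. Summed over replicates, 42 CLIP reads against 3 input reads gave a fold of 8.79 (95% exact counting interval 2.81 to 44.4), which covers counting error only. With all 6 libraries it did not pass the filter on low counts. Without the filter, where 97.1% of all clusters were called, the edgeR log2 fold was 3.00 (adjusted p = 0.00431). With an input library left out it passed the filter. Its edgeR adjusted p was then 0.0523, 0.0241 and 0.0537 without input replicate 1, 2 and 3. In those fits 594, 672 and 591 of 727 clusters tested were called higher in CLIP.

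In the authors' deposited table, which tests each replicate on its own, 46.7% of the 636 clusters had a p under 0.05 in replicate 2, and 9 of the 13 clusters did. All 4 clusters of eIF3 genes had a p under 0.05 in replicates 1 and 3 only, with a replicate 2 p of 0.0788 for eif-3.E, 0.305 and 0.0518 for eif-3.I and 1 for eif-3.G. The other 9 clusters, from 4 genes, had it in all 3 replicates, as did 46.1% of the 636 clusters. Counted by gene, 4 of 7 genes had such a cluster, against 47.1% of the 363 gene identifiers. CLIP replicate 2 had 3 to 17 reads in the 4 eIF3 clusters and 29 to 192 in the other 9.

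**Figure D3:**
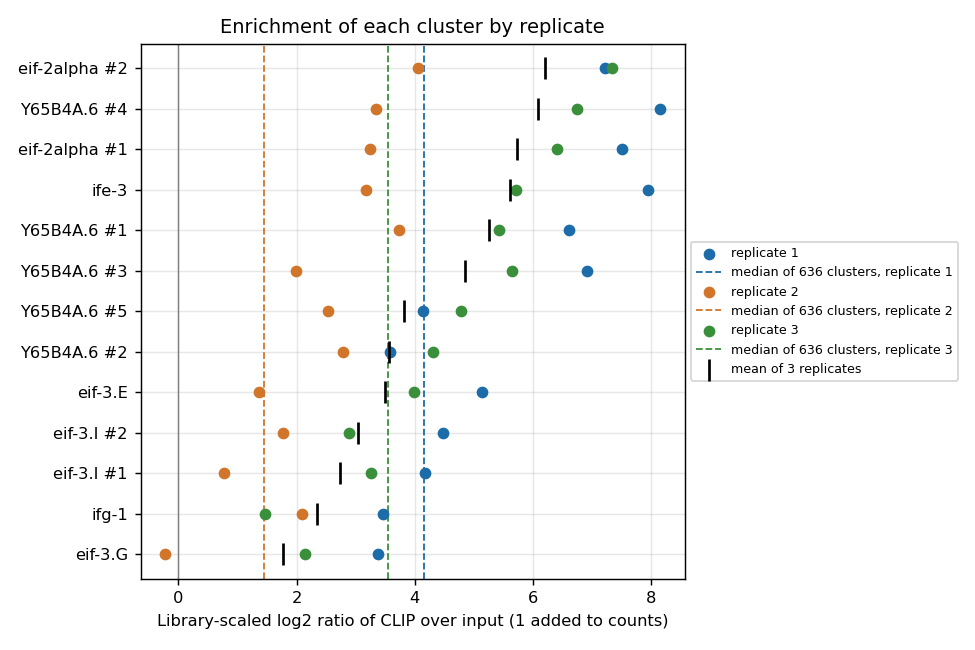
Library-scaled log2 ratio of CLIP over input in each replicate (coloured points) and the mean of 3 replicates (black bars) for the 13 clusters. Dashed lines give the median of the 636 clusters in each replicate, 4.15, 1.44 and 3.55. Replicate 2 is the lowest point in most clusters, and ifg-1 is an exception, with replicate 3 lowest.

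Of the eIF4F complex, a cap-binding gene and the scaffold gene had a cluster each. ife-3 (WBGene00002061, minus strand) is 1 of 5 eIF4E genes of the worm and the only one of the 5 with a cluster. It lies near the left end of chromosome V, at 6584 to 7829, and its cluster covered 6779 to 6871. It gave CLIP counts of 681, 125 and 425 and input counts of 1, 5 and 5. CLIP and input were widely separated in each replicate. The scaled log2 ratio was 5.61 ± 2.39 (SD, n = 3), a 48.7-fold enrichment at place 23 of 636, and the edgeR log2 fold was 5.98 (adjusted p = 4.38e-06). Per length, this had the highest mean density of the 13 clusters, at 77.2 ± 52.3 CLIP CPM per 100 bases (SD, n = 3). The upstream cluster of eif-2alpha was close, at 73.6 ± 46.1 (SD, n = 3), a gap smaller than either SD.

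ifg-1 (WBGene00002066, chromosome II, 8221467 to 8221638, plus strand), the eIF4G gene of the worm, gave CLIP counts of 45, 29 and 14 and input counts of 2, 2 and 3. The order of its CLIP libraries differed from that of the other 12 clusters: replicate 3 was below replicate 2, a pattern seen in 18 of the 636 clusters (2.83%). In the other 12 clusters the order ran from replicate 1 over 3 to 2. The cluster lay 758 bases before the gene's 3' end, in place of the 97 to 195 bases seen for the nearest cluster of the other 6 genes. The scaled log2 ratio of ifg-1 was 2.34 ± 1.02 (SD, n = 3), a 5.07-fold enrichment at place 446 of 636. The edgeR log2 fold was 2.91 (adjusted p = 9.29e-05). Its density, 2.97 ± 1.57 CLIP CPM per 100 bases (SD, n = 3), was the lowest of the 13. The helicase gene of the complex, inf-1, had no cluster.

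Y65B4A.6 (eif-4A3, WBGene00022029, minus strand), which spans 629465 to 636348 on chromosome I, carried the longest array. Its 5 uniquely annotated clusters, numbered from 5' to 3' along the transcript, lay at 630747 to 630845, 630598 to 630653, 630380 to 630498, 629756 to 629951 and 629640 to 629712. Such arrays of 5 or more were found in 14 of 232 genes that had any cluster in a 3' UTR. Cluster 4 was the strongest, at CLIP counts of 787, 118 and 434 and input counts of 1, 4 and 2. Its scaled log2 ratio was 6.08 ± 2.47 (SD, n = 3), a 67.6-fold enrichment at place 10 of 636, and its edgeR log2 fold 6.71 (adjusted p = 3.29e-06). Cluster 1 gave CLIP counts of 270, 61 and 174 and input counts of 1, 1 and 2, a ratio of 5.25 ± 1.45.

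Cluster 2 of Y65B4A.6 was the weakest, at CLIP counts of 116, 31 and 80 and input counts of 6, 1 and 2 and a ratio of 3.56 ± 0.77 (SD, n = 3). Cluster 4 exceeded it by 2.52 ± 1.99 (SD, n = 3) within replicates, higher in 3 of 3, while its lead over cluster 1, 0.82 ± 1.05, was within the spread. Clusters 4 and 2 were picked as the highest and lowest by mean ratio, so the sign of their mean difference follows from that choice. The difference was 4.56, 0.57 and 2.43 in replicates 1, 2 and 3. Cluster 3 gave CLIP counts of 503, 82 and 271 and input counts of 2, 8 and 3, and cluster 5 CLIP counts of 171, 53 and 149 and input counts of 6, 3 and 3. Their ratios were 4.85 ± 2.56 and 3.82 ± 1.16 (SD, n = 3). The edgeR log2 folds of clusters 1, 2, 3 and 5 were 6.20, 3.99, 5.13 and 4.24, with adjusted p-values from 4.07e-06 to 0.000139. The density of CLIP reads ran from 23.8 ± 13.4 in cluster 2 to 41.9 ± 30.9 CPM per 100 bases in cluster 3 (SD, n = 3). Within replicates cluster 3 was the denser of the pair in 3 of 3, by 18.0 ± 17.8 CPM per 100 bases (SD, n = 3), a difference about as large as its spread. This pair was picked as the extremes of mean density, so the sign of its mean difference follows from that choice.

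A further 2 reproducible clusters lay in the same 3' UTR, outside the uniquely annotated list, and each also lies in a snoRNA gene. That at 630020 to 630168 lay within Y65B4A.10 and gave CLIP counts of 378, 71 and 251, with 2 reads in every input library. Its scaled log2 ratio was 5.27 ± 1.68 (SD, n = 3) and its edgeR log2 fold 6.09 (adjusted p = 4.07e-06). That at 630927 to 631026 lay within Y65B4A.11 and gave CLIP counts of 308, 51 and 193 and input counts of 8, 3 and 2. Its ratio was 4.23 ± 1.59 (SD, n = 3) and its edgeR log2 fold 4.70 (adjusted p = 4.20e-05). Both were 100% inside the 3' UTR of Y65B4A.6, and reads of the messenger RNA and of the snoRNA cannot be told apart there. Both ratios lay within the range of the 5 unshared clusters. With them, 7 clusters covered 785 of 1386 bases, separated by gaps of 44 to 212 bases. The second eIF4A3 gene, F33D11.10, and the exon junction partners mag-1 and rnp-4 had no cluster. Whether reads of Y65B4A.6 could also map to F33D11.10 was not tested.

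The 7 genes were ordered by their strongest cluster, which favours genes with several clusters, such as Y65B4A.6. The order was eif-2alpha, Y65B4A.6, ife-3, eif-3.E, eif-3.I, ifg-1 and eif-3.G. Since replicate 2 had the lowest ratio in 12 of the 13 clusters, differences were taken within replicates. Of the 6 neighbouring pairs, 1 differed beyond the SD of the difference: ife-3 over eif-3.E, by 2.11 ± 0.60 on the log2 scale (SD, n = 3), in 3 of 3 replicates. eif-2alpha led Y65B4A.6 by 0.12 ± 0.92 and Y65B4A.6 led ife-3 by 0.47 ± 0.48 (SD, n = 3). With reads summed over each gene's clusters, ife-3 came before Y65B4A.6 instead. In the lower set, eif-3.E led eif-3.I by 0.45 ± 0.78, eif-3.I led ifg-1 by 0.70 ± 0.91 and ifg-1 led eif-3.G by 0.57 ± 1.56 (SD, n = 3). All 12 pairs between the first 3 and the other 4 genes went the same way in 3 of 3 replicates. This division was made after the values were seen and is a description.

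**Figure D4:**
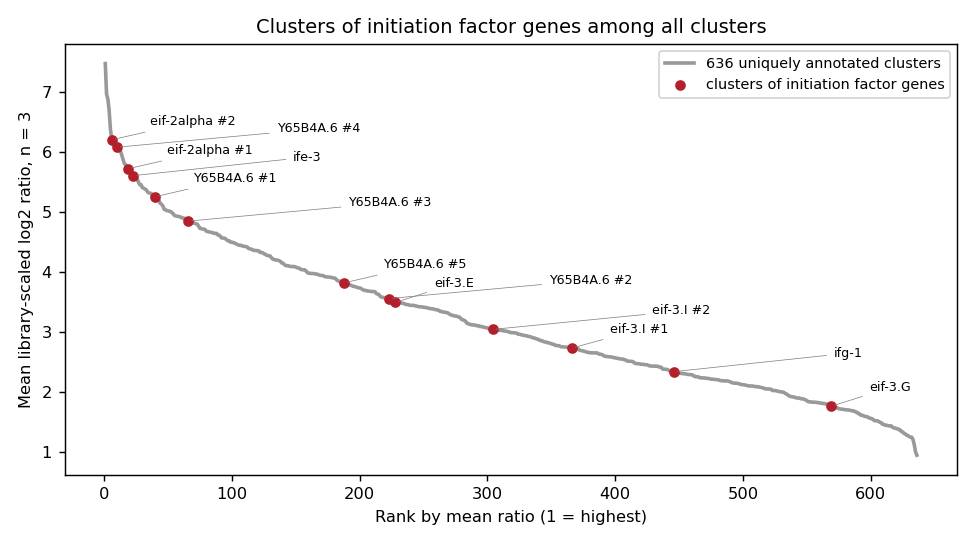
Mean library-scaled log2 ratio (n = 3 replicates) of the 636 uniquely annotated clusters against their rank (grey line), with the 13 clusters of initiation factor genes as red points. Clusters of eif-2alpha, ife-3 and Y65B4A.6 hold places 6 to 66, the 2 remaining clusters of Y65B4A.6 and those of eif-3.E, eif-3.I, ifg-1 and eif-3.G places 188 to 569.

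Read against the other clusters, the members fall on both sides of the middle. The edgeR log2 fold had a median of 4.44 over the 463 clusters tested and 4.79 over the 12 tested clusters of the 7 genes, of which 7 lay above the former. The downstream cluster of eif-2alpha and cluster 4 of Y65B4A.6 differed from it by 2.31 and 2.26, and ifg-1 by -1.53. TMM scaling moves the median of all clusters tested from 4.44 to -0.15, so that a fold then reads as a difference from the typical enriched cluster. On that scale 3 of the 12 were called higher, against 8.21% of all clusters tested: the downstream cluster of eif-2alpha at 2.17 (edgeR adjusted p = 0.0112) and clusters 4 and 1 of Y65B4A.6 at 2.11 (adjusted p = 0.0202) and 1.65 (adjusted p = 0.0318). Under TMM scaling 0 of the 12 were called lower by edgeR, also at an unadjusted p under 0.05 and with DESeq2 size factors, and 6 had a fold below 0. Of all clusters tested, 15.6% were called lower under TMM and 15.8% with DESeq2 size factors. ife-3 stood at 1.39 with an edgeR adjusted p of 0.0900 under TMM.

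Across the pathway, a list of 54 genes was read by complex, and 52 of them matched a RefSeq symbol. The other 2, eif-4B and eif-5, were not analysed here. Of the 52 matched genes, 10 had a uniquely annotated cluster, the 7 genes above and 3 more. Among all protein-coding genes in RefSeq, 290 of 19983 (1.45%) had one. The list was drawn up with these data known, and 7 of its genes were taken because they have a cluster, so its share, 19.2%, is a description. The 19983 genes were not limited to those expressed in these animals, and a share over expressed genes is not given here. Beside eif-2gamma, the further genes were iffb-1 and ifet-1, both with a 3' UTR cluster. iffb-1, the eIF5B gene whose product joins the ribosomal subunits, gave CLIP counts of 206, 26 and 125 and input counts of 2, 1 and 1 at 2326564 to 2326640 on chromosome III. The scaled log2 ratio of iffb-1 was 4.57 ± 1.76 (SD, n = 3) and its edgeR log2 fold 5.70 (adjusted p = 6.85e-06).

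ifet-1 encodes the worm relative of 4E-T, a protein that binds eIF4E and represses translation. Its cluster, at 4472147 to 4472275 on chromosome III, gave CLIP counts of 184, 42 and 121 and input counts of 9, 14 and 10. The inputs were higher than in any of the 13 clusters, and the ratio was 2.35 ± 1.82 (SD, n = 3), with an edgeR log2 fold of 2.58 (adjusted p = 0.00938). Under TMM scaling ifet-1 was called lower, at -1.96 (edgeR adjusted p = 0.00524), that is less enriched than the typical cluster. No cluster named eif-1, eif-1.A, eif-2A, eif-6, iff-1 or iff-2. Neither poly(A)-binding protein gene of the list, pab-1 or pab-2, had one, and 0 of 8 elongation and release factor genes did. Over all protein-coding genes 1.45% had one, so having none is the usual outcome.

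**Figure D5:**
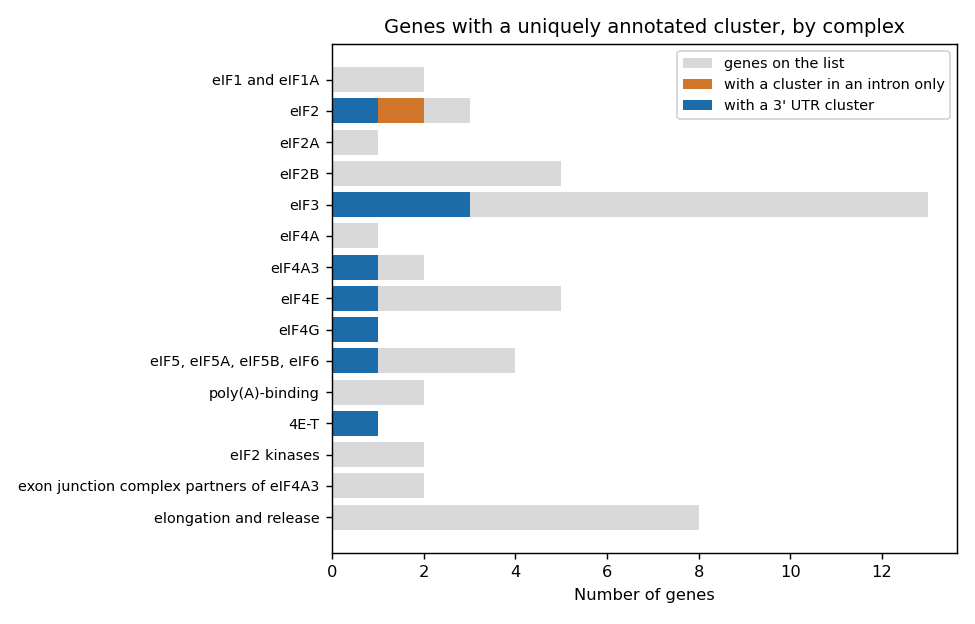
Number of listed genes in each complex (grey bars), with those that had a uniquely annotated 3' UTR cluster in blue and the 1 gene with an intron cluster only in orange. eIF3 had 3 of 13 genes with a cluster, eIF2 had 2 of 3, eIF2B had 0 of 5, and elongation and release factors had 0 of 8.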

How the data were processed

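Raw counts of reads in each cluster were deposited for 3 CLIP and 3 input libraries. Reads were handled with fastp 0.21.0 and STAR 2.7.10b, per the submitters' processing notes, and clusters were called by CLIPPER and annotated with WormBase, per the file captions. A deposited column headed entropy was found to hold log2 of CLIP over input after division by library totals. A chi-square score and p-value for each cluster and replicate come from the authors, per the file captions. Library totals were recovered by fitting the Yates-corrected statistic to those scores, which met 130 of 130, 73 of 76 and 116 of 116 of them within rounding. CLIP total standard errors were 0.0326%, 1.75% and 0.0834%.

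edgeR 4.0.16 was fitted to the 736 reproducible clusters with these totals, filterByExpr and a threshold of 0.05, in R 4.3.3. The recovery of totals and the edgeR fit were also run on simulated data, with outcomes not given here. Those runs cannot show whether each CLIP total is its library's own depth. The lowest deposited count was 1, so a 1 can stand for 0. Replicate numbers pair CLIP and input, as both came from 1 lysate per the labels' protocols; their deviations correlated at 0.309, 0.0971 and 0.00307. DESeq2 1.42.0, TMM, no filter, the replicate block, single left-out libraries and inputs of 1 taken as 0 were alternatives. No source used here says that replicates were separate cultures, and p-values then measure only the spread between these libraries, which may be technical. Members and lists were chosen with earlier results of these data known. Every cluster of the 7 genes and every listed gene with a cluster is named. Sequences of the clusters were not analysed here.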

Additional observations from a re-analysis of the deposited data

How the results depend on the processing

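Under the replicate block, each library left out, the fit restricted to uniquely annotated clusters, no filter, DESeq2 with the same totals and inputs of 1 taken as 0, the 12 tested clusters of the 7 genes kept their call, and the block gave 12 calls among them and 451 overall against 450. The 12 calls fell to 3 under TMM and to 3 with DESeq2 size factors, both of which centre these enriched clusters near 0. Over all clusters, the 450 calls became 38 under TMM, 35 with DESeq2 size factors, 715 without the filter and 716 with DESeq2, the last pair because 736 clusters entered the test. With CLIP replicate 1, 2 or 3 left out, 393 of 426, 679 of 680 and 407 of 431 clusters tested were called. Among the 7 genes all 12 clusters tested were called in each of these fits. With input replicate 1, 2 or 3 left out, 594, 672 and 591 of 727 clusters tested were called. Among the 7 genes these fits called 12, 13 and 12 of 13, and the cluster not called was that of eif-3.G. Folds turned below 0 under TMM and DESeq2 size factors for eif-3.E (-0.12 and -0.20), eif-3.I (-1.14 and -1.22 upstream, -0.37 and -0.45 downstream), Y65B4A.6 (-0.61 and -0.69 in its cluster 2, -0.27 and -0.34 in its cluster 5) and ifg-1 (-1.43 and -1.52). The calls of the upstream eif-2alpha cluster, cluster 3 of Y65B4A.6 and ife-3 were lost under both. The median ratio of the 13 clusters, 3.82, lay between 3.34 (without replicate 3) and 4.56 (without replicate 2) under 6 alternatives, of which the one with no count added was chosen after seeing the data. Input counts of 1 to 8 limit the precision of each ratio.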
